A study of Mus musculus with 13 samples.

Results

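Haemoglobin and red cell genes were read from the liver RNaseq as 5 genes, the adult alpha globin genes Hba-a1 and Hba-a2, the adult beta globin genes Hbb-bs and Hbb-bt, and Alas2. They were taken by symbol from a table of 53392 genes, and all 5 were found and passed the filter on low counts. The RNA came from whole liver of 13 female mice, 8 to 14 weeks of age, fed for 4 weeks on a liquid diet with ethanol as 28% of calories. All 13 carried the homozygous Rosa26-loxP-stop-loxP-rtTA allele and Albumin-Cre, which turns on the Dox-responsive activator rtTA in hepatocytes. Only ASAH+ mice carried the TRE-ASAH1 transgene, whose acid ceramidase mRNA is induced by doxycycline (Dox). The groups were 4 ASAH− mice given Dox at 200 mg/l (Etoh-Dox), 5 ASAH+ mice treated likewise, and 4 ASAH+ mice fed ethanol with no Dox (Etoh). No ASAH− group without Dox was analysed here, so that Dox itself and the induced transgene cannot be told apart between ASAH+ mice with and without Dox. The titles of the ASAH+ samples state the opposite Dox treatment from their descriptions and induction labels, and the latter were followed. In CPM (counts scaled by TMM to a common library size of 1000000), Asah1 stood at 9660 to 15920 in the ASAH+ Etoh-Dox mice and at 40.0 to 55.0 CPM in all other mice.

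Haemoglobin is a tetramer of alpha and beta chains around haem, made in erythroid cells of the bone marrow, and Alas2 is the erythroid enzyme of the first step of haem synthesis. Hepatocytes make haem through the other isoform, Alas1. Young red cells (reticulocytes) have lost the nucleus but still hold globin mRNA, so blood left in an organ brings adult globin transcripts with it. The fetal liver makes red cells, and the adult liver takes up old ones through Kupffer cells, its resident macrophages. In bulk RNA, fewer cells of a type and less RNA per cell cannot be told apart.

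Hba-a1 (ENSMUSG00000069919) lies on GRCm38 at chr11:32283511-32284465 and Hba-a2 (ENSMUSG00000069917) at chr11:32296489-32297298, both on the plus strand. Hbb-bs (ENSMUSG00000052305) lies at chr7:103826534-103828096 and Hbb-bt (ENSMUSG00000073940) at chr7:103812524-103813996, both on the minus strand. Alas2 (ENSMUSG00000025270) lies on the plus strand at chrX:150547375-150570638. The 5 genes moved together in these livers, and the 120 bases before each RefSeq transcription start (assembly GRCm38.p6) are therefore shown, read 5′ to 3′ along the gene, with matches on either strand to 4 short motifs in capitals. The motifs are CACCC, a core bound by Krüppel-like factors, then CCAAT, a common promoter box, then TATAA, the TATA box, and last GATAA, the core bound by GATA factors. In Hbb-bt CCAAT matches on the 2 strands meet without a gap. The windows are chr11:32283552-32283671 for Hba-a1, chr7:103827929-103828048 for Hbb-bs, chr7:103813924-103814043 for Hbb-bt and chrX:150547297-150547416 for Alas2. The gene bounds above are those of GENCODE, whose starts differ from the RefSeq starts. The windows of Hba-a1 and Hbb-bs therefore lie within these bounds, and the other windows overlap theirs in part.
Hba-a1: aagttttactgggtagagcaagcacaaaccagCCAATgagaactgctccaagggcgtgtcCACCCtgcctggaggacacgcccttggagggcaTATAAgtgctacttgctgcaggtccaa
Hbb-bs: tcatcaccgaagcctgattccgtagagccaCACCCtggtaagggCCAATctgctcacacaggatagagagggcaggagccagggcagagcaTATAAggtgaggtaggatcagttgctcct
Hbb-bt: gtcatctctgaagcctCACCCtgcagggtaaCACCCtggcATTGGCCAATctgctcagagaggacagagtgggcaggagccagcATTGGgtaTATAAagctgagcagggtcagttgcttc
Alas2: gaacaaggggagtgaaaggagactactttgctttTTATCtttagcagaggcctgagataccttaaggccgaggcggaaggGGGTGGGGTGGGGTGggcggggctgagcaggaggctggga
The window of Hba-a2, chr11:32296372-32296491, is the same sequence as that of Hba-a1 shifted by 3 bases, and the 2 promoters share an identical run of 297 of 300 bases. The windows of Hbb-bs and Hbb-bt share 73.9% of 119 aligned bases. All 4 globin windows hold the first 3 motifs, with TATAA beginning 27 to 30 bases before the start. Alas2 holds no CCAAT box and no TATA box, and has 3 copies of CACCC and 1 GATAA, all on the opposite strand. Of 32851 RefSeq windows of the same length, 31.7% hold CACCC, 21.3% CCAAT, 11.8% TATAA and 10.5% GATAA. These matches describe letters in a window and not bound sites.

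Globin transcripts were present in the liver of every mouse at a small share of all counts. The 4 globin genes summed to 0.0128 to 0.165% of the counts on genes, with a median of 0.0241% over 13 mice. In ASAH+ Etoh mice the share was 0.0128, 0.0150, 0.0158 and 0.0179%. In ASAH− Etoh-Dox mice it was 0.0219, 0.0720, 0.165 and 0.0206% for replicates 1 to 4. In ASAH+ Etoh-Dox mice it was 0.0684, 0.0241, 0.0829, 0.0348 and 0.0621% for replicates 1 to 5. Each of the 9 mice with Dox had a higher share than each of the 4 without it, while the groups with Dox overlapped widely. Total counts were 17819486 to 35358711 per mouse, and the share rested on 2748 to 40969 globin counts.

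Per kilobase of transcript, Hbb-bs had the highest mean level of the 5 genes, with 325 CPM per kilobase over the 13 mice, followed by Hba-a2 with 287, Hba-a1 with 101, Hbb-bt with 56.1 and Alas2 with 8.29. Hbb-bs stood above Hba-a2 in 11 of 13 mice, and the other neighbours in this order kept it in 13 of 13. Summed per kilobase, the alpha pair stood at 0.866 to 1.20 times the beta pair, so that mRNA of both pairs stood at a like level in every liver. The annotated lengths used were 699 bases for Hba-a1, 554 for Hba-a2, 628 for Hbb-bs and 703 for Hbb-bt. That of Hba-a1 begins before its RefSeq start. The levels per kilobase and the ratio depend on these lengths and on how salmon divided reads between paralogues.

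**Figure D1:**
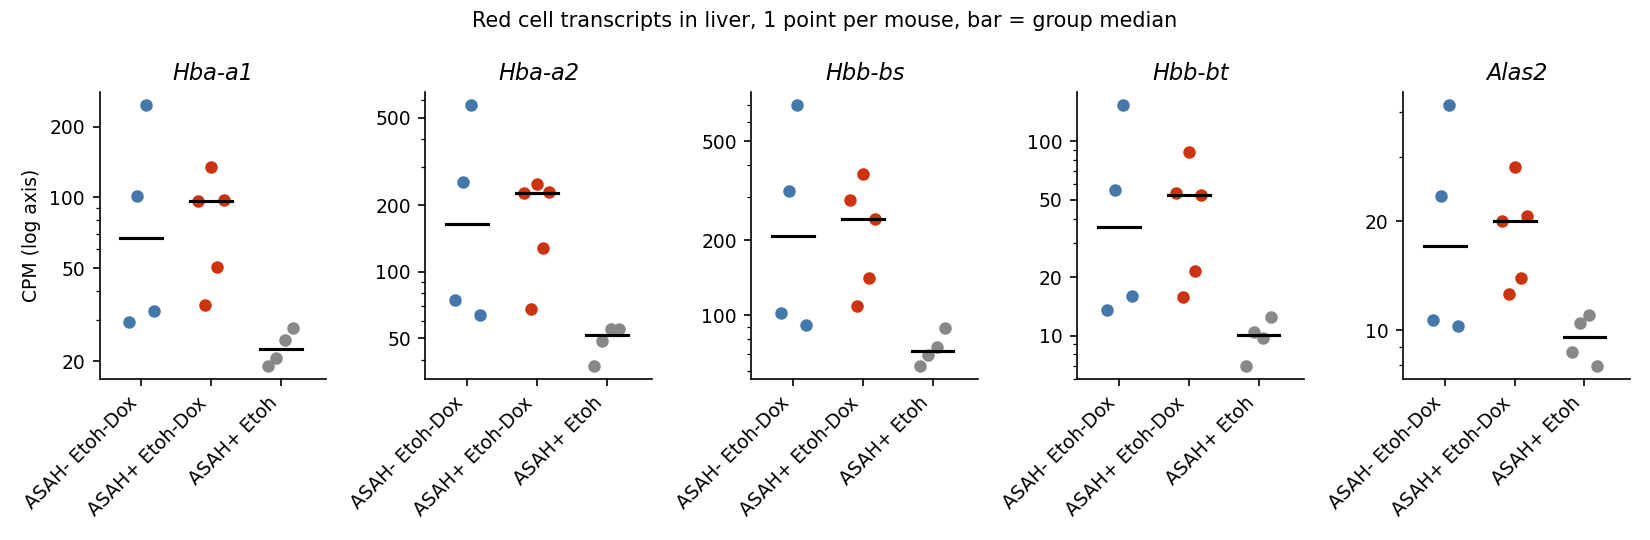
Levels of the 5 genes by group, in CPM on log axes that differ between panels. Each point is a mouse and each bar the median of 4, 5 and 4 mice. In the 4 globin panels all points of both Etoh-Dox groups lie above all ASAH+ Etoh points, from 62.8 to 89.2 CPM in the latter for Hbb-bs.

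Hba-a1 is 1 of the adult alpha globin genes. In ASAH− Etoh-Dox mice it stood at 29.6, 102, 248 and 32.8 CPM, and in ASAH+ Etoh-Dox mice at 96.5, 34.8, 134, 50.7 and 97.9 CPM. In ASAH+ Etoh mice it stood at 19.2, 20.7, 24.6 and 27.7 CPM. The mice without Dox were lowest and close to each other, and replicate 3 of ASAH− was the highest.

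Hba-a2 is the other adult alpha globin gene, a near copy of Hba-a1. It stood at 74.5, 255, 570 and 63.9 CPM in ASAH− Etoh-Dox mice and at 228, 67.9, 251, 128 and 231 CPM in ASAH+ Etoh-Dox mice. The ASAH+ Etoh mice had 37.5, 48.6, 54.9 and 54.8 CPM. The split between mice with and without Dox was the same as for Hba-a1, with the same mouse at the top.

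Hbb-bs, the beta globin gene with the most counts, stood at 102, 315, 699 and 91.9 CPM in ASAH− Etoh-Dox mice. In ASAH+ Etoh-Dox mice it stood at 290, 109, 368, 141 and 244 CPM, and in ASAH+ Etoh mice at 62.8, 69.5, 74.3 and 89.2 CPM. The gap between the groups was narrow, since the highest mouse without Dox (89.2 CPM) came close to the lowest with it (91.9 CPM). The mean was 302 ± 284 (SD, n = 4), 230 ± 106 (SD, n = 5) and 74.0 ± 11.2 CPM (SD, n = 4) in the order ASAH− Etoh-Dox, ASAH+ Etoh-Dox and ASAH+ Etoh, so that mice with Dox differed far more among themselves than mice without it.

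Hbb-bt is the other adult beta globin gene. Its levels were 13.6, 56.3, 154 and 15.9 CPM in ASAH− Etoh-Dox mice and 54.4, 15.8, 88.5, 21.5 and 53.0 CPM in ASAH+ Etoh-Dox mice. ASAH+ Etoh mice had 6.999, 10.4, 9.69 and 12.5 CPM. Hbb-bt had the widest range of the 5 genes, with a highest mouse at 21.97 times the lowest, against 11.1 for Hbb-bs, 12.9 for Hba-a1 and 15.2 for Hba-a2.

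Alas2 ranged least, with a highest mouse at 5.25 times the lowest. It stood at 10.6, 23.4, 41.8 and 10.3 CPM in ASAH− Etoh-Dox mice and at 19.98, 12.6, 28.2, 13.9 and 20.6 CPM in ASAH+ Etoh-Dox mice. ASAH+ Etoh mice had 8.70, 10.4, 10.99 and 7.97 CPM. All ASAH+ Etoh-Dox mice lay above these, whereas ASAH− replicates 1 and 4 fell among them.

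The order of the mice was nearly the same for each gene. ASAH− replicate 3 was the highest of 13 for all 5 genes, and ASAH+ Etoh-Dox replicate 3 came next for 4 of them, while for Hba-a2 ASAH− replicate 2 came next. ASAH− replicates 1 and 4 and ASAH+ Etoh-Dox replicate 2 had the lowest globin levels of the mice with Dox. On log2 CPM, Pearson's r between any 2 of the 5 genes was 0.968 to 0.995 across the 13 mice, so that the 5 genes are not 5 independent measurements of a liver.

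The transgene was tested under the same Dox exposure by comparing ASAH+ with ASAH− mice on Etoh-Dox. No red cell gene passed the test. The log2 fold changes were -0.31 ± 0.58 for Hba-a1, -0.41 ± 0.59 for Hba-a2, -0.39 ± 0.55 for Hbb-bs, -0.36 ± 0.68 for Hbb-bt and -0.18 ± 0.38 for Alas2 (edgeR estimate ± SE, n = 5 and 4). None of the 5 passed an adjusted p of 0.1, edgeR's adjusted p being 1.0 for each, and none had an unadjusted p under 0.05, against 0.014% and 2.86% of all 14317 genes tested. The difference of mean log2 CPM lay between -0.03 and 0.08, with p = 0.952 to 1.0 by exact permutation, two-sided. The negative sign of the fitted changes rested on 1 mouse. Without ASAH− replicate 3 they became 0.60 for Hba-a1, 0.47 for Hba-a2, 0.44 for Hbb-bs, 0.71 for Hbb-bt and 0.37 for Alas2. The SE of 0.38 to 0.68 shows how wide a difference these mice leave undetectable.

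Dox together with the induced transgene was compared with no Dox within ASAH+ mice. All 5 genes were higher with Dox, the globin genes by 3.12-fold to 4.72-fold and Alas2 by 2.00-fold, but none passed the adjusted threshold by edgeR. The log2 fold changes were 1.85 ± 0.62 for Hba-a1, 1.89 ± 0.62 for Hba-a2, 1.64 ± 0.58 for Hbb-bs, 2.24 ± 0.75 for Hbb-bt and 1.00 ± 0.40 for Alas2 (SE, n = 5 and 4). Their unadjusted p-values were 0.0108 to 0.0278 and their adjusted p-values 0.55 to 0.618 by edgeR's quasi-likelihood test, with 0.014% of all genes called and 7.29% at an unadjusted p under 0.05. Every ASAH+ Etoh-Dox mouse was above every ASAH+ Etoh mouse for 5 of 5 genes, in 20 of 20 pairs each, against 1.09% of all genes tested. Permuting the mice exactly, two-sided, gave p = 0.0159 for each gene alone, which is the lowest value that groups of 5 and 4 can reach. The call depended on the tool, since DESeq2 on the same 9 mice gave adjusted p-values of 1.3e-05 for Hba-a1, 3.93e-06 for Hba-a2, 4.97e-05 for Hbb-bs, 0.00785 for Hbb-bt and 0.0103 for Alas2. On all 13 mice DESeq2 called Hba-a1, Hba-a2 and Hbb-bs (adjusted p = 0.0695, 0.0486 and 0.0985). It gave no adjusted p there for Hbb-bt and Alas2, so DESeq2 adjusted over another set of genes than edgeR did.

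ASAH− Etoh-Dox mice against ASAH+ Etoh mice differ in both genotype and Dox. The same 4 ASAH+ Etoh mice serve as the reference here, so this is not a separate observation of their low levels. The globin genes were 4.09-fold to 6.06-fold higher in ASAH− Etoh-Dox mice and Alas2 was 2.26-fold higher, and again none passed the adjusted threshold by edgeR. The log2 fold changes were 2.16 ± 0.65 for Hba-a1, 2.30 ± 0.65 for Hba-a2, 2.03 ± 0.61 for Hbb-bs, 2.60 ± 0.78 for Hbb-bt and 1.17 ± 0.42 for Alas2 (SE, n = 4 and 4). EdgeR's unadjusted p was 0.00433 to 0.0153 and its adjusted p 0.389 to 0.443, with 0.014% of all genes called and 9.18% at an unadjusted p under 0.05. Every mouse of 1 group was above every mouse of the other for 4 of 5 genes, against 3.09% of all genes tested, and exact permutation (two-sided) gave p = 0.0286 for each of these 4, the lowest value that groups of 4 and 4 can reach. Alas2 was higher in 13 of 16 pairs of mice (exact permutation p = 0.143). Here too the call depended on the tool. DESeq2 on these 8 mice called Hba-a2 and Hbb-bt alone (adjusted p = 0.0982 each), and on all 13 mice it called the 4 globin genes (adjusted p = 0.0454 to 0.0808). ASAH− replicate 3 carried much of the size, and without it the log2 fold change was 1.25 for Hba-a1, 1.42 for Hba-a2, 1.20 for Hbb-bs, 1.53 for Hbb-bt and 0.63 for Alas2.

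**Figure D2:**
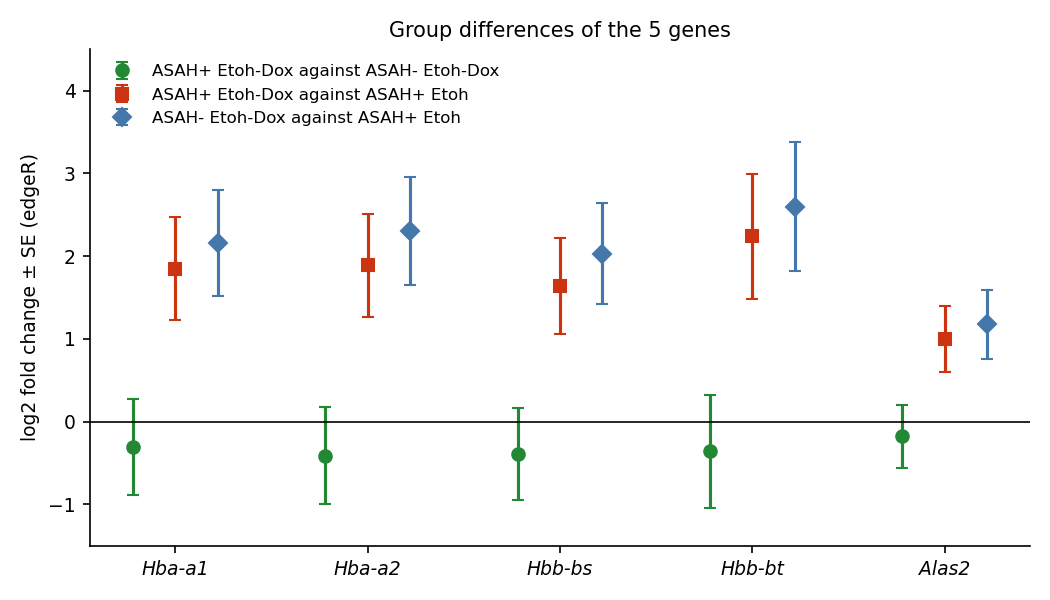
Fitted log2 fold changes of the 5 genes in the 3 comparisons, with bars of 1 SE from edgeR. The comparison between the groups with Dox lies within about 1 SE of 0, and both comparisons with ASAH+ Etoh lie above 0, from 1.00 for Alas2 to 2.60 for Hbb-bt.

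Alas2 followed the globin genes at a smaller fold in both comparisons with ASAH+ Etoh. When log2 Hbb-bs was added to the model as a covariate, the log2 fold change of Alas2 was -0.08 in ASAH+ mice with against without Dox, -0.11 in ASAH− Etoh-Dox against ASAH+ Etoh mice and 0.03 between the groups on Etoh-Dox, each with an edgeR adjusted p of 0.998 to 1.0. Hbb-bs carries the group difference itself and has r = 0.973 with Alas2, so this fit could hardly have left one and is given as values only.

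Within the pairs of paralogues the split of counts was compared, with the limit that salmon divides reads that fit both copies. Of the 31-base words of the Hba-a2 transcript, 91.0% also occur in Hba-a1, and of those of Hbb-bs 66.9% also occur in Hbb-bt, whereas Hba-a1 and Hbb-bs share 0. Hba-a2 took 65.1 to 71.6% of the counts of the alpha pair. Its lowest share was 65.1% (95% exact interval 64.2 to 66.0%) in ASAH+ Etoh-Dox replicate 3 and its highest 71.6% (69.7 to 73.4%) in ASAH− replicate 1, and the groups overlapped. Hbb-bt took 10.03 to 19.4% of the counts of the beta pair. It was lowest in ASAH+ Etoh replicate 1, at 10.03% (8.56 to 11.7%), and highest in ASAH+ Etoh-Dox replicate 3, at 19.4% (18.7 to 20.1%), intervals that lie well apart. ASAH+ Etoh mice had 10.03 to 13.1%, ASAH− Etoh-Dox mice 11.7 to 18.02% and ASAH+ Etoh-Dox mice 12.6 to 19.4%. In the 2 mice with the highest Hbb-bs level, ASAH− replicate 3 and ASAH+ Etoh-Dox replicate 3, it took 18.02 and 19.4%. With each pair summed to 1 feature, the log2 fold change in ASAH+ mice with against without Dox was 1.87 for alpha and 1.72 for beta globin. The intervals cover counting error only, and PCR copies are not independent molecules.

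**Figure D3:**
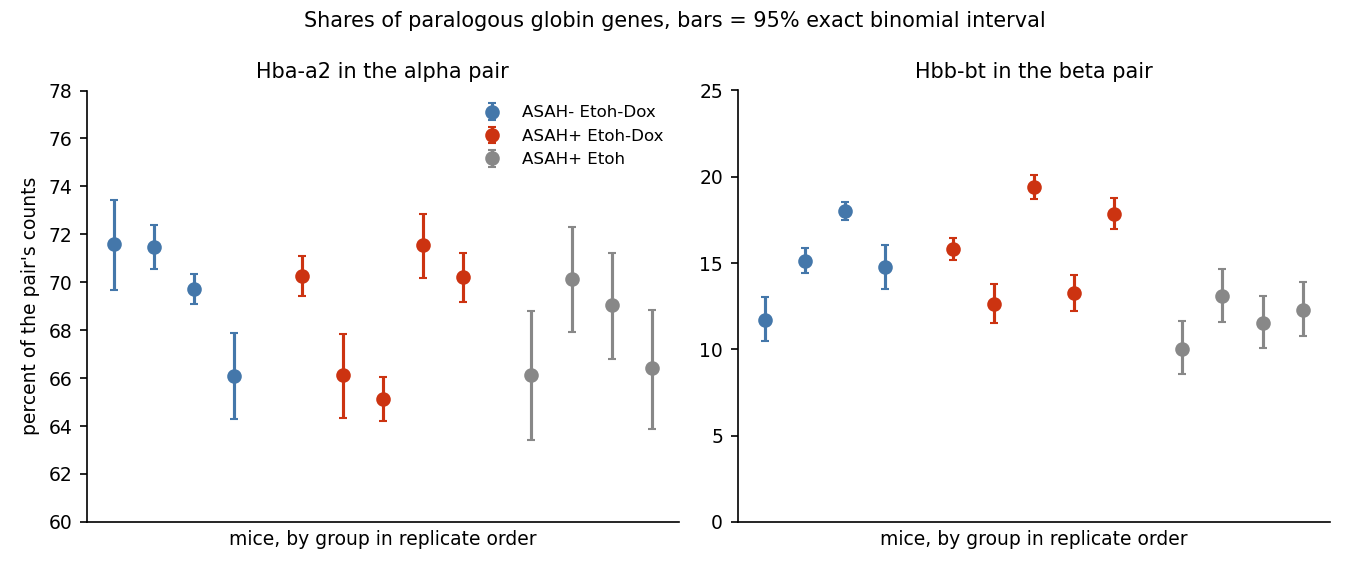
Share of Hba-a2 in the alpha pair and of Hbb-bt in the beta pair, in percent of the pair's counts, for each mouse in order of replicate number. Bars are 95% exact binomial intervals, and the left axis begins at 60%. Hba-a2 stays between 65.1 and 71.6% in all groups, and the 3 highest Hbb-bt shares, 17.9 to 19.4%, are in mice with Dox.

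Slc4a1, the anion exchanger band 3 of the red cell membrane, was far below the globins and had 0 counts in 2 of 13 mice. It stood at 0 to 0.0927 CPM in ASAH+ Etoh mice, at 0.0456, 1.04, 6.24 and 0.0357 CPM in ASAH− Etoh-Dox mice and at 0.691, 0.0360, 6.72, 0.160 and 1.43 CPM in ASAH+ Etoh-Dox mice. The 2 replicates numbered 3 with Dox held most of it. Slc4a1 passed the filter on low counts through mice with Dox, since the ASAH+ Etoh mice had 0 to 2 counts, so its higher level with Dox is given as a description.

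A list of 30 late red cell genes was examined, of which 17 passed the filter on low counts, Slc4a1 through mice with Dox alone, so that counts over the 17 do not stand for the list. None passed an adjusted p of 0.1 in any comparison by edgeR. For ASAH+ with against without Dox, 2 of the 17 were higher, Slc4a1 among them, and 1 lower (Aqp1) at an unadjusted p under 0.05, against 7.29% of all genes in either direction, and the median log2 fold change was 0.12, against 0.01 for all genes. For ASAH− Etoh-Dox against ASAH+ Etoh mice, 3 were higher, Slc4a1 and Mkrn1 among them, and 1 lower (Xpo7), against 9.18% of all genes, with a median of 0.04 against 0.02. Between the groups with Dox, Aqp1 alone was lower, against 2.86% of all genes, with a median of -0.02. The most abundant genes of this list were at like levels in all mice, such as Epb41 at 125 to 189 CPM and Fech, the last enzyme of haem synthesis, at 132 to 164 CPM. The 13 genes of the list under the filter, which include the membrane genes Ank1, Epb42 and Rhag, had few counts. They summed to 3 to 9 per ASAH+ Etoh mouse. They summed to 6, 57, 208 and 10 in ASAH− Etoh-Dox mice and to 29, 12, 225, 14 and 36 in ASAH+ Etoh-Dox mice. ASAH− replicate 3 and ASAH+ Etoh-Dox replicate 3 stood far above the other mice here, at 8.35 and 8.01 CPM (unscaled) against at most 2.17 CPM, although their Hbb-bs levels of 699 and 368 CPM were not alike.

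Of 14 early erythroid and progenitor genes, 10 were tested and 0 were called by edgeR in any comparison, and at an unadjusted p under 0.05 only Kit, a receptor of progenitor and mast cells, was lower in ASAH+ with against without Dox, where 0.014% of all genes were called and 7.29% had such a p. Gata1, the erythroid transcription factor, had 0 counts in 9 of 13 mice and at most 0.245 CPM, in ASAH− replicate 3. Klf1, an erythroid Krüppel-like factor, stood at 0.924 to 3.38 CPM with its groups overlapping. The list summed to 50.3 to 91.3 CPM, most of it from the transferrin receptor Tfrc (15.4 to 49.5 CPM) and Zfpm1, a partner of GATA factors (12.2 to 30.6 CPM). The embryonic globins were at or near 0, with 4 of 6 (Hba-x, Hbb-bh2, Hbb-y and Hbq1a) at 0 in every mouse and Hbb-bh1 at 1 count or fewer. Hbq1b had 0 counts in 4 of 13 mice and at most 7 counts, in ASAH− replicate 3. A count of 0 allows up to 3 counts.

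Haem synthesis was examined as 12 genes, all of them tested and 0 called by edgeR in any comparison, against 0.014% of all genes in each. At an unadjusted p under 0.05 there were 2 of the 12 in ASAH+ with against without Dox (7.29% of all genes) and 1 in ASAH− Etoh-Dox against ASAH+ Etoh mice (9.18% of all genes). Alad, the enzyme after the Alas step, was higher at an unadjusted p of 0.0194 in ASAH+ with against without Dox and 0.00385 in ASAH− Etoh-Dox against ASAH+ Etoh mice, with log2 fold changes of 0.25 and 0.34 and edgeR adjusted p of 0.6 and 0.389. Ppox was higher in the first of these only at an unadjusted p (0.00616, log2 fold change 0.35, edgeR adjusted p = 0.512). Alas1, the hepatocyte isoform, ranged from 40.7 to 1302 CPM and passed the test in no comparison (edgeR adjusted p of 0.889 to 1.0), against 7.97 to 41.8 CPM for Alas2.

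Clearance of haemoglobin and haem was examined as 18 genes, again with 0 called by edgeR, against 0.014% of all genes. At an unadjusted p under 0.05, Blvrb was higher and Hp and Bmp6 lower in ASAH+ with against without Dox (7.29% of all genes), and Blvra, Marco and Cd5l were higher in ASAH− Etoh-Dox against ASAH+ Etoh mice (9.18% of all genes). Hp encodes haptoglobin, the plasma carrier of free haemoglobin, and stood at 1436 to 2909 CPM. Hmox1, which breaks down haem, stood at 11.2 to 58.1 CPM and was highest in ASAH− replicate 3. Hamp, the hepatocyte hormone hepcidin that blocks iron export, ranged from 1.35 CPM in that mouse to 532 CPM in ASAH+ Etoh replicate 3.

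The level of Hbb-bs was related to 13 measures across the 13 mice on log2 CPM, with permutation p-values adjusted over the 13. Alas2 had a Pearson's r of 0.973 (permutation adjusted p = 3.25e-05) and a Spearman's rho of 0.918 (adjusted p = 6.5e-05). Slc4a1 had r = 0.944 and rho = 0.856, given as a description because its counts come almost wholly from mice with Dox. After the 2 mice farthest from the median were left out, r was 0.945 for Alas2 and 0.925 for Slc4a1. On deviations from the group means, pooled over the 3 groups, r was 0.957 for Alas2 (permutation adjusted p = 0.00427) and 0.935 for Slc4a1. Among the 4 ASAH+ Etoh mice, Alas2 was lowest, at 7.97 CPM, in the mouse with the most Hbb-bs. In the other 3 Alas2 rose with Hbb-bs, at 8.70, 10.4 and 10.99 CPM. Slc4a1 had 0, 1, 2 and 0 counts in rising order of Hbb-bs, too few to show a relation. The other 3 globin genes had r of 0.990 to 0.995 (permutation p = 1e-05 each, the smallest that the resamples can give).

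Hamp went the opposite way. Its r with Hbb-bs was -0.915 (permutation adjusted p = 0.000195) and its rho -0.813 (adjusted p = 0.00253). Without ASAH− replicates 2 and 3, the mice farthest from the Hamp median, r was -0.846, and on deviations from the group means it was -0.922 (permutation adjusted p = 0.00159). Of the other 14316 genes tested, Hamp had the lowest r with Hbb-bs. In ASAH− Etoh-Dox mice Hamp stood at 134, 4.24, 1.35 and 444 CPM for replicates 1 to 4, the reverse of their Hbb-bs order. In ASAH+ Etoh-Dox mice it stood at 7.90, 344, 20.3, 88.4 and 18.98 CPM, and in ASAH+ Etoh mice at 280, 370, 532 and 35.4 CPM. Of the mice without Dox, the one with the most Hbb-bs had the lowest Hamp, while in the other 3 Hamp rose with Hbb-bs. Hamp passed the test between no groups (edgeR adjusted p of 0.829 to 1.0). Its paralogue Hamp2 had r = -0.861, a value looked up after the data were seen.

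**Figure D4:**
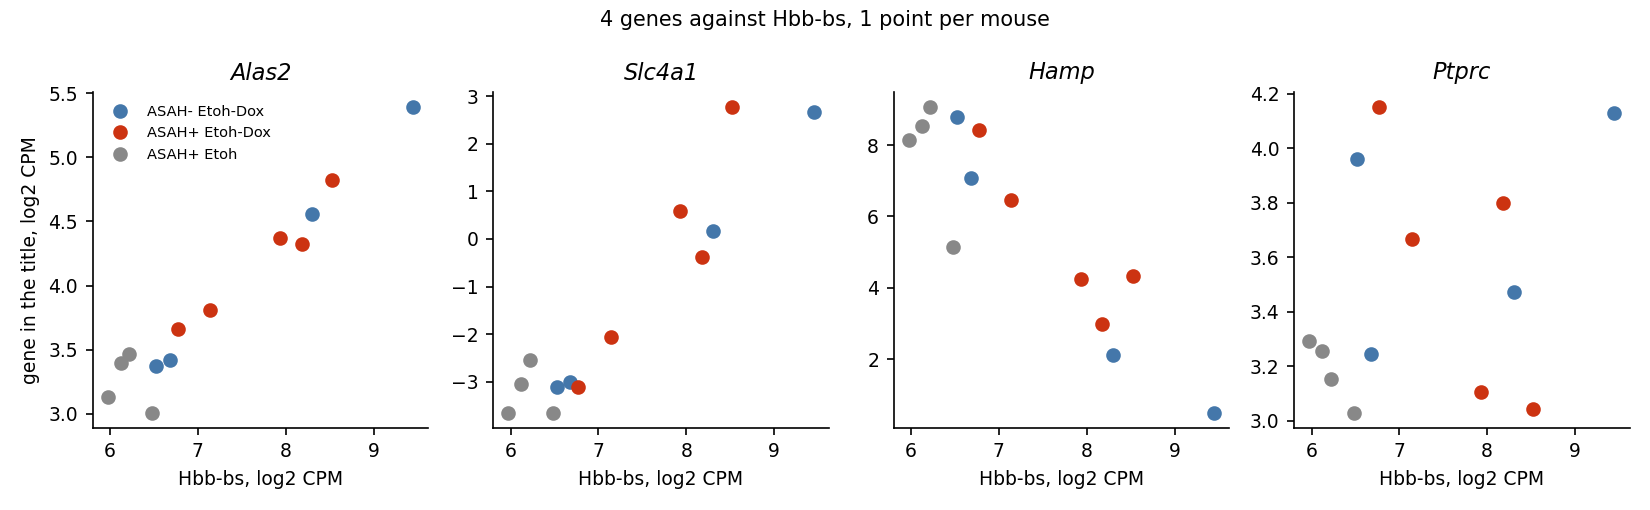
Log2 CPM (prior count 2) of Alas2, Slc4a1, Hamp and Ptprc against that of Hbb-bs, 1 point per mouse, coloured by group, with a vertical axis of its own in each panel. Alas2 rises with Hbb-bs (r = 0.973), Hamp falls (r = -0.915) and Ptprc shows no clear relation (r = 0.282). Slc4a1 (r = 0.944) had 0 to 2 counts in ASAH+ Etoh mice and is shown as a description.

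The 4 markers of white cells, platelets and Kupffer cells among the 13 measures had no relation to Hbb-bs past the threshold. S100a8 rested on 3 to 17 counts per mouse and Pf4 on 4 to 19, so that these could hardly show a relation. Ptprc (CD45, on all white cells) had r = 0.282 and rho = 0.225, S100a8 (neutrophils) r = 0.0634 and rho = 0.0549, Pf4 (platelets) r = 0.409 and rho = 0.352, and Clec4f (Kupffer cells) r = 0.285 and rho = 0.236, each with a permutation adjusted p of 0.256 or more for r and 0.389 or more for rho. Without the 2 mice farthest from the median, r was 0.0746 for Ptprc, 0.165 for S100a8, -0.256 for Pf4 and -0.0556 for Clec4f. On deviations from the group means r was -0.0949 for Ptprc, 0.46 for S100a8, 0.314 for Pf4 and 0.00575 for Clec4f (permutation adjusted p of 0.328 or more). Ppbp, another platelet gene and not among the 13 measures, was highest in the 2 mice with the most Hbb-bs, at 1.10 CPM in ASAH− replicate 3 and 1.16 CPM in ASAH+ Etoh-Dox replicate 3, and stood at 0.0921 to 0.163 CPM in ASAH+ Etoh mice. It was named after its values were seen, and its part in the globin levels was not tested. Hmox1 had r = 0.399 (rho = 0.209, permutation adjusted p = 0.256 and 0.583), which became -0.125 without ASAH− replicate 3 and ASAH+ Etoh replicate 2. Its r was 0.511 on deviations from the group means (permutation adjusted p = 0.19). The log2 ratio of Dbp to Arntl, clock genes of opposite phase, had r = -0.237 (rho = -0.126, permutation adjusted p = 0.468 and 0.74) and r = -0.186 without 2 mice. Total counts had r = 0.477 (rho = 0.593, permutation adjusted p = 0.186 and 0.067) and r = 0.421 without 2 mice, and r was 0.137 on deviations from the group means.

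**Figure D5:**
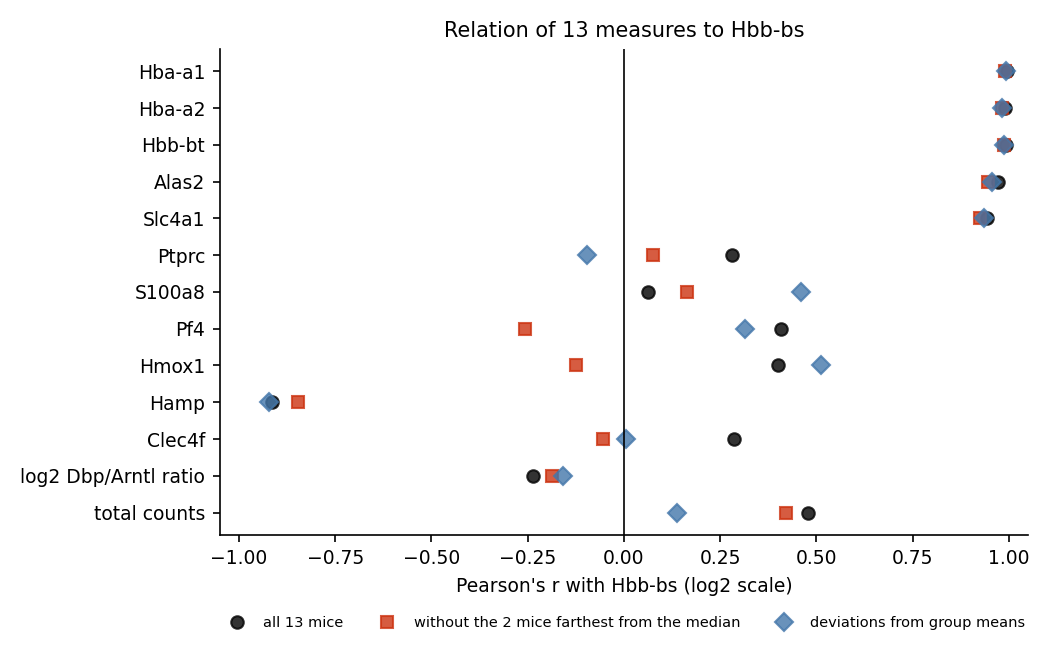
Pearson's r of each of 13 measures with Hbb-bs on the log2 scale, over all 13 mice, without the 2 mice farthest from the median of the measure, and on deviations from the group means. The other 3 globin genes and Alas2 stay at 0.945 or above and Hamp at -0.846 or below in all 3, whereas Pf4, Hmox1 and Clec4f change sign when 2 mice are left out. Slc4a1, at 0.925 or above, is shown as a description because its counts come almost wholly from mice with Dox.

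These cells were also summed by list. The 29 genes of other blood cells summed to 19.2 to 23.0 CPM in ASAH+ Etoh mice, to 24.0 to 41.6 CPM in ASAH− Etoh-Dox mice and to 23.4 to 42.1 CPM in ASAH+ Etoh-Dox mice, so that the list stood higher with Dox in every mouse. Of its 17 genes tested, 0 were called by edgeR, and at an unadjusted p under 0.05 there were 3 higher in ASAH+ with against without Dox (Ighm and Nkg7 among them, 7.29% of all genes) and 5 higher in ASAH− Etoh-Dox against ASAH+ Etoh mice (Cd3e, Cd79b, Ighm and Ptprc among them, 9.18% of all genes). Its most abundant genes were Ptprc, Ighm and Itga2b, and the defining neutrophil gene S100a8 was at 0.120 to 0.742 CPM in all mice. The 8 Kupffer cell genes summed to 305 to 391 CPM in ASAH+ Etoh mice, 407 to 847 CPM in ASAH− Etoh-Dox mice and 304 to 575 CPM in ASAH+ Etoh-Dox mice, and 6 of the 8 were higher at an unadjusted p under 0.05 in ASAH− Etoh-Dox against ASAH+ Etoh mice (9.18% of all genes), with 0 called by edgeR. The highest Kupffer sum was in the ASAH− group, which also held the mouse with the most globin, replicate 3. That mouse was the highest of 13 for Clec4f (182 CPM), Cd5l (264 CPM) and C1qb (87.8 CPM). It was also the highest for Stab2 (59.7 CPM), Clec4g (59.8 CPM) and Rgs5 (63.7 CPM), though not for Fcgr2b, a choice of genes made after their values were seen. The 6 sinusoidal endothelial genes summed to 157 to 218 CPM in ASAH+ Etoh mice, 137 to 253 CPM in ASAH− Etoh-Dox mice and 121 to 166 CPM in ASAH+ Etoh-Dox mice, where 5 were lower at an unadjusted p under 0.05 against ASAH+ Etoh mice (7.29% of all genes) and 4 against ASAH− Etoh-Dox mice (2.86% of all genes), with 0 called by edgeR. The 8 hepatocyte genes, led by Alb, summed to 90930 to 143400 CPM, the 6 stellate cell genes to 210 to 337 CPM and the 5 cholangiocyte genes to 31.5 to 79.1 CPM. Of the hepatocyte genes, Apoa1 and Serpina1a were lower in ASAH+ than ASAH− mice on Etoh-Dox at an unadjusted p under 0.05 (2.86% of all genes). Serpina1a and Cps1 were lower in ASAH+ with against without Dox (7.29%), and Apoa1 higher in ASAH− Etoh-Dox against ASAH+ Etoh mice (9.18%). The stellate gene Reln was lower in the first and higher in the last of these comparisons, and edgeR called 0 genes of these lists. The 6 genes of spleen and pancreas summed to 5.68 to 11.6 CPM, nearly all of it Cela1, with the pancreatic Prss2 at 0 in 10 of 13 mice. The part of these cells in the globin levels was not tested.

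The genes most like Hbb-bs were ranked by Pearson's r over the 13 mice among all 14316 other genes tested. The first 4 places went to the other 4 red cell genes described here. The next 10 included Slc4a1 (0.944), Ost4 (0.930), Mpdu1 (0.917), Hsbp1 (0.916), Gm12481 (0.915), Serf2 (0.906), Apol11b (0.902), Bpgm (0.900) and Amdhd2 (0.900), against a median r of 0.03 over all genes. Bpgm makes the red cell regulator 2,3-bisphosphoglycerate, and like Slc4a1 it belongs to the late red cell list. Bpgm stood at 9.49 to 12.2 CPM in ASAH+ Etoh mice, at 9.575 to 19.5 CPM in ASAH− Etoh-Dox mice and at 9.14 to 17.7 CPM in ASAH+ Etoh-Dox mice. The groups overlapped, and ASAH− replicate 3 was the highest. Ost4, Hsbp1 and Serf2 varied little, Serf2 from 79.3 to 96.6 CPM, so their likeness rests on small differences. Apol11b had 0 to 4 counts in ASAH+ Etoh mice, so that like Slc4a1 it is given as a description. The genes were ranked on the same mice and carry no test.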

How the data were processed

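Whole-liver poly(A) RNA of 13 mice was sequenced as 100-base single reads from stranded libraries. The authors mapped reads with salmon to GENCODE M19 transcripts (GRCm38.p6) and summarized to the gene level by tximport. Per gene, the authors deposited unscaled estimated counts, 100% of them whole numbers, so rounded before deposit. Names and coordinates came from GENCODE M21 (53355 identifiers matched) and promoters from RefSeq. The 5 genes and the gene lists were chosen with earlier results of these data known.

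Counts were normalized by TMM and fitted over all 13 mice with edgeR 4.0.16 (R 4.3.3; quasi-likelihood, robust, 3 group means) on 14317 genes kept by its filter, with Benjamini-Hochberg adjustment over all genes and a threshold of 0.1. CPM are TMM-scaled, and log2 CPM used a prior count of 2. Single genes were also compared by exact two-sided permutation, and relations by 100000 two-sided permutations (scipy 1.17.1). P-values measure the spread between mice. Replicates were checked to be different libraries.

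Genes named were the 5, list members past the threshold (0), the most abundant genes of each list, those in the relations, the 10 most like Hbb-bs, and Asah1. Genes named for an unadjusted p, or as examples of low counts, and Hamp2 were chosen after their values were seen. Some genes that this rule names are not reported here. On simulated counts with 200 genes drawn at random and changed 2-fold between the groups on Etoh-Dox, edgeR recovered 72% of them over 14134 genes. Of its calls there, 8.28% were false. The red cell genes had SE of 0.38 to 0.68 in this comparison, and their own chance of being detected was not simulated. Alternatives included DESeq2 1.42.0, other filters and scalings, Hbb-bs as a covariate and each mouse left out.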

Additional observations from a re-analysis of the deposited data

How the results depend on the processing

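No member passed the adjusted threshold by edgeR in any setting. DESeq2 in place of edgeR on the groups compared called all 5 in ASAH+ with against without Dox, with log2 fold changes of 1.84 for Hba-a1, 1.88 for Hba-a2, 1.63 for Hbb-bs, 2.23 for Hbb-bt and 0.99 for Alas2. On all 13 mice it called 3 (1.84, 1.88 and 1.63 for Hba-a1, Hba-a2 and Hbb-bs; adjusted p = 0.0695, 0.0486 and 0.0985) and gave no adjusted p for Hbb-bt and Alas2. For ASAH− Etoh-Dox against ASAH+ Etoh it called Hba-a2 (2.28) and Hbb-bt (2.58) on the groups compared, both with adjusted p = 0.0982, and on all 13 mice Hba-a1 (2.14), Hba-a2 (2.28), Hbb-bs (2.01) and Hbb-bt (2.58). The cause was not tested. With Hbb-bs as a covariate the sign of the log2 fold change of Alas2 turned, to 0.033 between the groups on Etoh-Dox, -0.076 in ASAH+ with against without Dox and -0.11 in ASAH− Etoh-Dox against ASAH+ Etoh.

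Leaving out 1 mouse at a time, log2 fold changes between the groups on Etoh-Dox ranged from -0.61 to 0.60 for Hba-a1, -0.73 to 0.47 for Hba-a2, -0.69 to 0.44 for Hbb-bs, -0.71 to 0.71 for Hbb-bt and -0.41 to 0.37 for Alas2, positive only without ASAH− replicate 3. In ASAH+ with against without Dox they were 1.60 to 2.04, 1.73 to 2.10, 1.40 to 1.82, 1.86 to 2.46 and 0.81 to 1.11, and in ASAH− Etoh-Dox against ASAH+ Etoh 1.25 to 2.45, 1.42 to 2.61, 1.20 to 2.33, 1.53 to 2.92 and 0.63 to 1.41.

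The number of all genes called moved with the tool. Between the groups on Etoh-Dox it was 2, and 11 with DESeq2 on the groups compared, 12 with DESeq2 on all 13 mice, 1 with edgeR on the groups compared, 1 with the replicate block and 1 to 2 with a mouse left out. For ASAH+ with against without Dox it was 2, and 114 and 98 with DESeq2, 4 with no count filter and 2 to 8 with a mouse left out (8 without ASAH+ Etoh replicate 2). For ASAH− Etoh-Dox against ASAH+ Etoh it was 2, and 168 and 149 with DESeq2, and 0 with edgeR on the groups compared (1257 genes at an unadjusted p under 0.05), the replicate block (1027) or the Hbb-bs covariate (622), and 0 to 2 with a mouse left out.

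Same-numbered mice are different animals. The mean correlation of their deviations was -0.133, -0.0624 and 0.0567 in the 3 pairs of groups, so the numbers do not pair them. With the replicate block Hbb-bs had log2 fold changes of -0.20, 1.45 and 1.64 and no member was called. Leaving the globins out of the library totals, other filters and DESeq2's size factors, run on the member fits, changed no direction or call of a member. A prior count of 0.5, run on the exact permutations and the relations, and plain library totals, run on the relations alone, changed no direction or call there. Over counts without mitochondrial genes, Alb and Asah1, the median globin share of ASAH+ Etoh mice was 0.0182% in place of 0.0154%.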
